A study of Mus musculus with 9 samples.

Results

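The constitutive proteasome genes of mouse liver were taken as the entries of a count table whose symbol is Psma, Psmb, Psmc or Psmd followed by a number. The immunoproteasome genes Psmb8, Psmb9 and Psmb10 were left out, and 36 of the 35275 entries met this rule. Of the 36, 31 encode subunits of the proteasome: 7 of the alpha ring, 7 of the beta ring, 6 ATPases and 3 other subunits of the base, and 8 subunits of the lid. The other 5 carry such a symbol without being constitutive subunits in the liver. Psmd5, Psmd9 and Psmd10 encode chaperones that help to assemble the base and leave the finished particle. Psma8 encodes an alpha subunit of male germ cells and Psmb11 a beta subunit of the thymus.

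The proteasome degrades proteins that carry ubiquitin chains. Its barrel-shaped core is built of alpha rings, which gate the entrance, and beta rings, whose subunits Psmb5, Psmb6 and Psmb7 hold the active sites. The regulatory particle that caps the core has a base, with ATPases that unfold substrates and thread them in, and a lid, which removes ubiquitin. Proteasome genes are known to be induced together by the transcription factor NRF1 when proteasome activity falls, and some of them also by NRF2, the main factor of the antioxidant response.

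Liver RNA was sequenced from C57BL/6 mice injected with AdipoRonPEG5, a PEGylated form of AdipoRon, with the parent AdipoRon, a small molecule that activates adiponectin receptors, or with PBS as vehicle. Each group held 3 libraries. Injections were given 2 times a day over 5 days. The labels state 5 mg/kg for both compounds and for PBS alike, which leaves the dose received unclear. They do not say that the libraries of a group came from separate mice, and p-values then measure only the spread between these libraries, which may be technical.

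Total counts were 13942322 to 18508950 in 8 libraries and 39473195 in vehicle 1, and the 31 subunit genes had 541 to 6630 counts in every library. Counts were scaled with edgeR (TMM) and are given as CPM, counts scaled to the library total, which also rise with gene length, so that CPM compare groups and not genes. Fold changes are log2 ratios from the fit. A gene was called where the edgeR quasi-likelihood test gave a Benjamini-Hochberg adjusted p under 0.05 over the 13151 genes tested. Of the 36 members, 35 passed the filter on low counts. The labelled tissue was checked with 7 hepatocyte markers, whose summed level was 84530.5 to 94100.2 CPM in AdipoRonPEG5, 78623 to 84329 CPM in AdipoRon and 91504 to 98907 CPM in vehicle livers. The AdipoRon sums lay below those of vehicle. Against vehicle, 1 of the 7 markers was called lower with AdipoRonPEG5 and 0 with AdipoRon, where all 7 had fold changes below 0.

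Per gene length as used in the authors' values, the core was the most abundant part of the particle at the RNA level. In the authors' FPKM (counts scaled to gene length and library total), the beta ring had a median over its 7 genes of 143 in AdipoRonPEG5, 137 in AdipoRon and 129 in vehicle livers. The alpha ring followed with medians of 85.4, 78.0 and 75.8 FPKM in the same groups. The 6 ATPases were at 57.3, 56.3 and 53.5 FPKM, and the 8 lid genes at 38.4, 37.3 and 35.8 FPKM. The 3 chaperone genes were far below the subunits, with medians of 8.41 FPKM in AdipoRonPEG5, 8.78 in AdipoRon and 7.50 in vehicle livers. The 31 subunits spanned 22.5 FPKM (Psmd1) to 192 FPKM (Psmb5) in AdipoRonPEG5 livers, 22.2 (Psmc2) to 153 (Psmb6) in AdipoRon livers and 19.4 (Psmd1) to 159 (Psmb6) in vehicle livers. Ranks between genes depend on the gene lengths used, which the FPKM imply to be 3466 bases for Psmc2 and 2846 for Psma3.

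**Figure D1:**
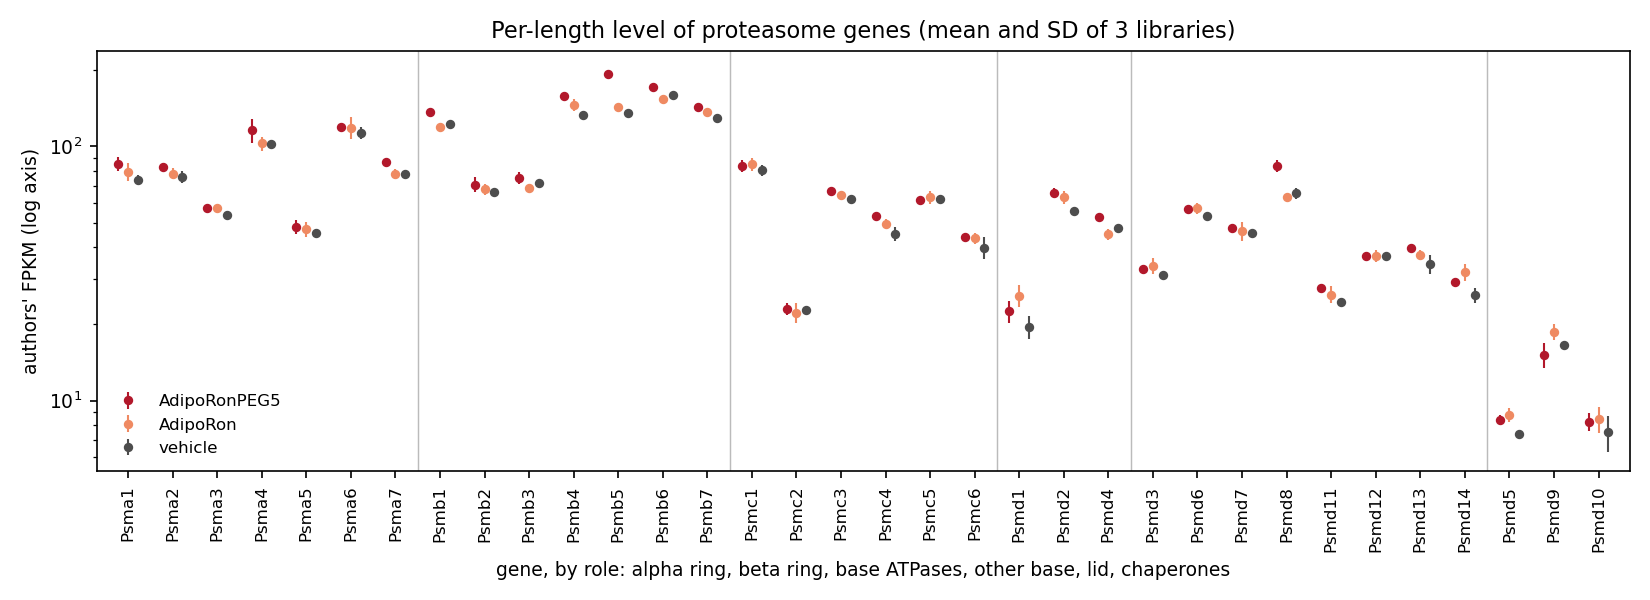
Mean FPKM with its SD on a log axis for the 34 members used in liver, by role in the particle, in AdipoRonPEG5, AdipoRon and vehicle livers (n = 3 each). The beta ring has the highest median, at 143, 137 and 129 FPKM in the 3 groups, and the assembly chaperones the lowest, at 8.41, 8.78 and 7.50 FPKM.

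The subunits of other tissues were at or near the floor of the measurement. Psmb11 had 0 counts in all 9 libraries, which allows up to 3 counts in each, or 0.076 to 0.215 CPM. Psma8 had 7, 22 and 11 counts in AdipoRonPEG5, 7, 16 and 8 in AdipoRon and 36, 9 and 6 in vehicle livers, with no gap between the groups. Such limits cover counting error only. The 31 subunits, by contrast, were measured with little spread, the median coefficient of variation between the 3 libraries of a group being 4.50% in AdipoRonPEG5, 4.79% in AdipoRon and 4.31% in vehicle livers.

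AdipoRonPEG5 livers were first set against vehicle livers. Of the 35 members tested, Psmb5 and Psmd8 rose with AdipoRonPEG5 and no member fell, while 33 were not called. In the same comparison 9.55% of all genes tested were called higher and 7.63% lower, 17.2% in either direction. The 2 genes are 5.71% of the members tested, less than the 9.55% of all genes. An unadjusted p under 0.05 was reached by 3 of the 35 members, beside 4134 of the 13151 genes tested. The members' median log2 fold change was 0.057, beside -0.0013 over all genes tested, with 25 of 35 above 0.

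Psmb5, the beta ring subunit with the chymotrypsin-like active site, was at 159, 159 and 176 CPM in AdipoRonPEG5 livers, 123, 117 and 121 CPM in AdipoRon livers and 119.8, 118 and 130.2 CPM in vehicle livers. All 3 AdipoRonPEG5 libraries lay above the 6 others, and the AdipoRon and vehicle libraries overlapped. Psmb5 rose 1.34-fold with AdipoRonPEG5 against vehicle (log2 ratio 0.42 ± 0.074 (SE), 95% confidence interval 0.26 to 0.59, edgeR adjusted p = 0.00356). The call was kept under all 21 alternative settings, with log2 fold changes of 0.37 to 0.51.

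Psmd8, a lid subunit whose yeast counterpart is the last to join the lid, was at 123, 121 and 139 CPM in AdipoRonPEG5 livers, 95.8, 93.4 and 96.0 CPM in AdipoRon livers and 105, 98.8 and 112 CPM in vehicle livers. The AdipoRonPEG5 libraries were again the highest, and here the AdipoRon libraries lay below those of vehicle. Its rise with AdipoRonPEG5 against vehicle was 1.21-fold (log2 ratio 0.28 ± 0.078 (SE), 95% confidence interval 0.11 to 0.45, edgeR adjusted p = 0.0327). This call ended without AdipoRonPEG5 2, AdipoRonPEG5 3, AdipoRon 3, vehicle 1 or vehicle 2 (adjusted p from 0.0502 to 0.134), with no filter on low counts (0.0547) and with only these groups in the fit (0.067).

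The other catalytic subunits were not called. Psmb6, with the caspase-like site, was at 167, 159 and 160.0 CPM in AdipoRonPEG5, 143, 140.0 and 148 CPM in AdipoRon and 154, 158 and 170.5 CPM in vehicle livers. AdipoRonPEG5 and vehicle overlapped and the AdipoRon libraries were lowest. Its log2 fold change against vehicle with AdipoRonPEG5 was 0.012 ± 0.069 (SE), with a 95% confidence interval of -0.14 to 0.16. Psmb7, with the trypsin-like site, was at 167, 163 and 159.9 CPM in AdipoRonPEG5, 151, 153 and 160.3 CPM in AdipoRon and 159, 154 and 155 CPM in vehicle livers. Its AdipoRonPEG5 libraries lay just above the vehicle ones, with a log2 fold change of 0.066 ± 0.064 (SE) and a 95% confidence interval of -0.076 to 0.21 (edgeR adjusted p = 0.529).

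**Figure D2:**
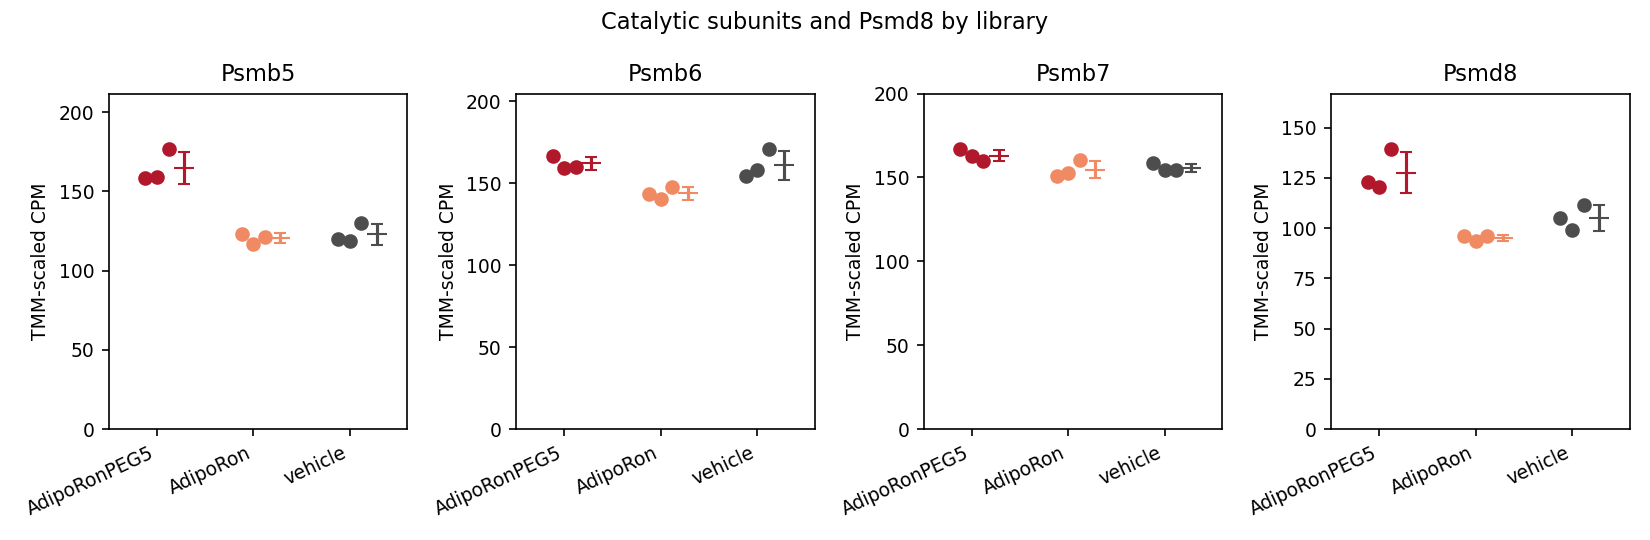
TMM-scaled CPM of Psmb5, Psmb6, Psmb7 and Psmd8 in each library, with AdipoRonPEG5, AdipoRon and vehicle from left to right; points are libraries, and bars the mean with its SD (n = 3). For Psmb5 the AdipoRonPEG5 libraries (159 to 176 CPM) stand above all others, while for Psmb7 the groups lie within 151 to 167 CPM.

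The sequence before the 2 called genes is shown because they are the members that rose in the same livers. The element marked was chosen with the rise of NRF2 targets there known, as described further on. A link of that rise to Psmb5 or Psmd8 was not tested. The windows run from 250 bases before to 50 bases after the RefSeq start site on GRCm38.p6, 300 bases in all, 5′ to 3′ on the gene's own strand. Capitals mark the core of the antioxidant response element, TGACNNNGC, which NRF2 and NRF1 are known to bind. Psmb5 is shown over chr14:54617946-54618245, minus strand, and Psmd8 over chr7:29180624-29180923, minus strand.
Psmb5: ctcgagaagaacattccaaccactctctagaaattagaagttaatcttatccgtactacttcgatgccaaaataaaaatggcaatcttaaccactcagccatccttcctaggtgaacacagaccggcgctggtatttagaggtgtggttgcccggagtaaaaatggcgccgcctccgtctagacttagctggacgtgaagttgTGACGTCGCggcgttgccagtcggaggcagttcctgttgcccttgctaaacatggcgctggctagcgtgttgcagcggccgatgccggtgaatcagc
Psmd8: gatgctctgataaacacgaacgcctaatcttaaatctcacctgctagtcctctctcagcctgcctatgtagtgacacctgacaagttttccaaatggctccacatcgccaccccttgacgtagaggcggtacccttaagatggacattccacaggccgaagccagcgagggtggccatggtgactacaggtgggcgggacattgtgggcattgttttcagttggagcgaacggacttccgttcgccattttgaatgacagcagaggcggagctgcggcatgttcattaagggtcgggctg

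The Psmb5 window holds 1 such core, TGACGTCGC, with its first base at position -47 from the start site, and the Psmd8 window holds none. RefSeq windows were found for 29 of the 36 members, 31 windows in all, and 5 of the 31 (16.1%) hold the core on either strand. It occurs in 12.4% of the 32851 windows of all genes. Of the 14 windows found for 11 of the 14 genes on the NRF2 list, 5 (35.7%) hold it. The other 4 members with it were Psmb6 (TGACGGAGC, first base at -9), Psmd9 (TGACCCCGC, first base at -31), Psmc6 and Psmd12, and none of these was called in any comparison. Log2 fold changes with AdipoRonPEG5 against vehicle were 0.012 for Psmb6, -0.21 for Psmd9, 0.050 for Psmc6 and -0.093 for Psmd12. The CCAAT box, a common promoter element searched on both strands, was held by 12 of the 31 windows (38.7%) and by 37.4% of all windows. A match is a description of letters and not of binding.

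Within the roles, counts of called genes stayed at 0 or 1 with AdipoRonPEG5. None of the 7 alpha ring genes was called, with log2 fold changes against vehicle of -0.011 to 0.13, and Psma1 alone had no overlap between the groups. The 6 ATPases of the base ran from -0.10 to 0.15 and none was called. The 3 other base subunits, the scaffolds Psmd1 and Psmd2 and the ubiquitin receptor Psmd4, were at 0.13, 0.16 and 0.060, without a call. Of the 8 lid genes, the 7 besides Psmd8 were between -0.093 and 0.13 and were not called, Psmd14, the deubiquitinase that strips ubiquitin from substrates, being at 0.09. With total-count scaling Psmd2 and the beta ring gene Psmb4 were called higher as well (edgeR adjusted p = 0.0438 and 0.0354). Libraries did not overlap for 7 members higher with AdipoRonPEG5 (Psma1, Psmb5, Psmb7, Psmd2, Psmd8, Psmd11 and Psmd14) and for 1 lower, the chaperone Psmd9, against 18.2% and 17% of all genes tested.

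Psmd9 is a chaperone that holds ATPases of the base during assembly, and is named here after its values were seen. It was at 36.2, 43.3 and 38.3 CPM in AdipoRonPEG5, 50.5, 44.3 and 48.7 CPM in AdipoRon and 45.5, 44.8 and 46.0 CPM in vehicle livers. The AdipoRonPEG5 libraries were the 3 lowest, but neither the difference from vehicle (log2 ratio -0.21 ± 0.084 (SE), edgeR adjusted p = 0.113) nor that from AdipoRon (-0.28 ± 0.084, adjusted p = 0.0776) was called. The other base chaperones, Psmd5 and Psmd10, had log2 fold changes of 0.10 and 0.06 against vehicle.

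The second comparison set AdipoRon against vehicle, and the test passed for none of the members. No member was called in either direction by edgeR, DESeq2 or limma-voom, where edgeR called 3.8% of all genes tested higher, 1.4% lower and 5.2% in either direction. An unadjusted p under 0.05 was reached by 5 of the 35 members, beside 2884 of the 13151 genes tested. Over all 35 the median log2 fold change was -0.027, with 13 of 35 above 0. This sign turned with total-count scaling (median 0.075) and with a gene length trend removed (0.061). Total-count scaling also moved the median of all genes to 0.10, so that neither direction of the group can be read from the sign.

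Libraries of AdipoRon and vehicle did not overlap for Psmd1 and Psmd14, higher, and for Psma7, Psmb1, Psmb3, Psmb6, Psmd4 and Psmd8, lower, beside 14.4% and 12.4% of all genes tested. The widest difference among them, named after the values were seen, was that of Psmd1, the scaffold of the base, at 84.3, 70.2 and 80.8 CPM in AdipoRon and 67.1, 64.2 and 58.0 CPM in vehicle livers. Its log2 fold change was 0.31 ± 0.10 (SE; edgeR adjusted p = 0.107). Psmd14 was at 47.9, 44.5 and 51.9 CPM in AdipoRon and 43.2, 41.8 and 40.2 CPM in vehicle livers (0.20 ± 0.074, adjusted p = 0.144). Both were called with total-count scaling only (adjusted p = 0.0431 and 0.0491). For Psmb5 the log2 fold change with AdipoRon was -0.027, with a 95% confidence interval of -0.19 to 0.14 (edgeR adjusted p = 0.873). Both comparisons use the same 3 vehicle libraries.

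The compounds, which differ by the PEG group that the series' text gives AdipoRonPEG5, were compared directly at the same labelled dose and time. This is 1 pair of compounds, with p-values adjusted over all genes tested. The genes called were again Psmb5 and Psmd8, both higher with AdipoRonPEG5, and no member was called lower, where 2.68% of all genes tested were called higher, 2.71% lower and 5.39% in either direction. Of the 35 members, 7 had an unadjusted p under 0.05, beside 2863 of the 13151 genes tested. Psmb5 was 1.37-fold higher with AdipoRonPEG5 than with AdipoRon (log2 difference 0.45 ± 0.074 (SE), 95% confidence interval 0.29 to 0.61, edgeR adjusted p = 0.00892). For Psmd8 the ratio was 1.34-fold (0.42 ± 0.078, 95% confidence interval 0.25 to 0.60, adjusted p = 0.0145). Both calls were kept under all 21 alternative settings. This comparison shares its AdipoRonPEG5 libraries with the first and its AdipoRon libraries with the second.

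For the rest of the particle the difference between the compounds was not called, and its intervals were narrow. Of the 34 members used in liver, 32 had a 95% confidence interval within 0.5 on the log2 scale on either side of 0 between the compounds. The same held for 33 members in each comparison with vehicle. Psmb6 had a log2 difference of 0.17 between the compounds (95% confidence interval 0.021 to 0.33, edgeR adjusted p = 0.173), and Psmb7 one of 0.078 (-0.064 to 0.22, adjusted p = 0.527). An interval of this kind bounds the difference and does not show that the compounds act alike.

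Between the compounds the core genes lay above 0, except with a length trend removed or single libraries left out, as given here. All 7 beta ring genes had log2 differences above 0 (median 0.14), 5 of them with no overlap between the groups. All 7 alpha ring genes were above 0 as well (median 0.11), and 6 of 7 without AdipoRonPEG5 1, AdipoRonPEG5 3, AdipoRon 2 or AdipoRon 3. The median over the 35 members was 0.078, beside -0.013 over all genes tested, and 11 members had higher AdipoRonPEG5 libraries with no overlap and 1 lower, against 13.9% and 14.3% of all genes. With a gene length trend removed, 5 of 7 beta ring genes (median 0.067) and 4 of 7 alpha ring genes remained above 0. Next to the called genes came Psmd4 at 112, 108 and 110.1 CPM in AdipoRonPEG5 and 94.8, 88.1 and 96.4 CPM in AdipoRon livers, with an edgeR adjusted p of 0.0758. The chaperone Psmd9 followed in the other direction (log2 difference -0.28, edgeR adjusted p = 0.0776). Psmb1, a beta ring subunit without an active site, was at 141, 132 and 144 CPM in AdipoRonPEG5 and 121, 117 and 121 CPM in AdipoRon livers (adjusted p = 0.0853). DESeq2 called Psmd4 and Psmb1 (adjusted p = 0.0462 and 0.0485).

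**Figure D3:**
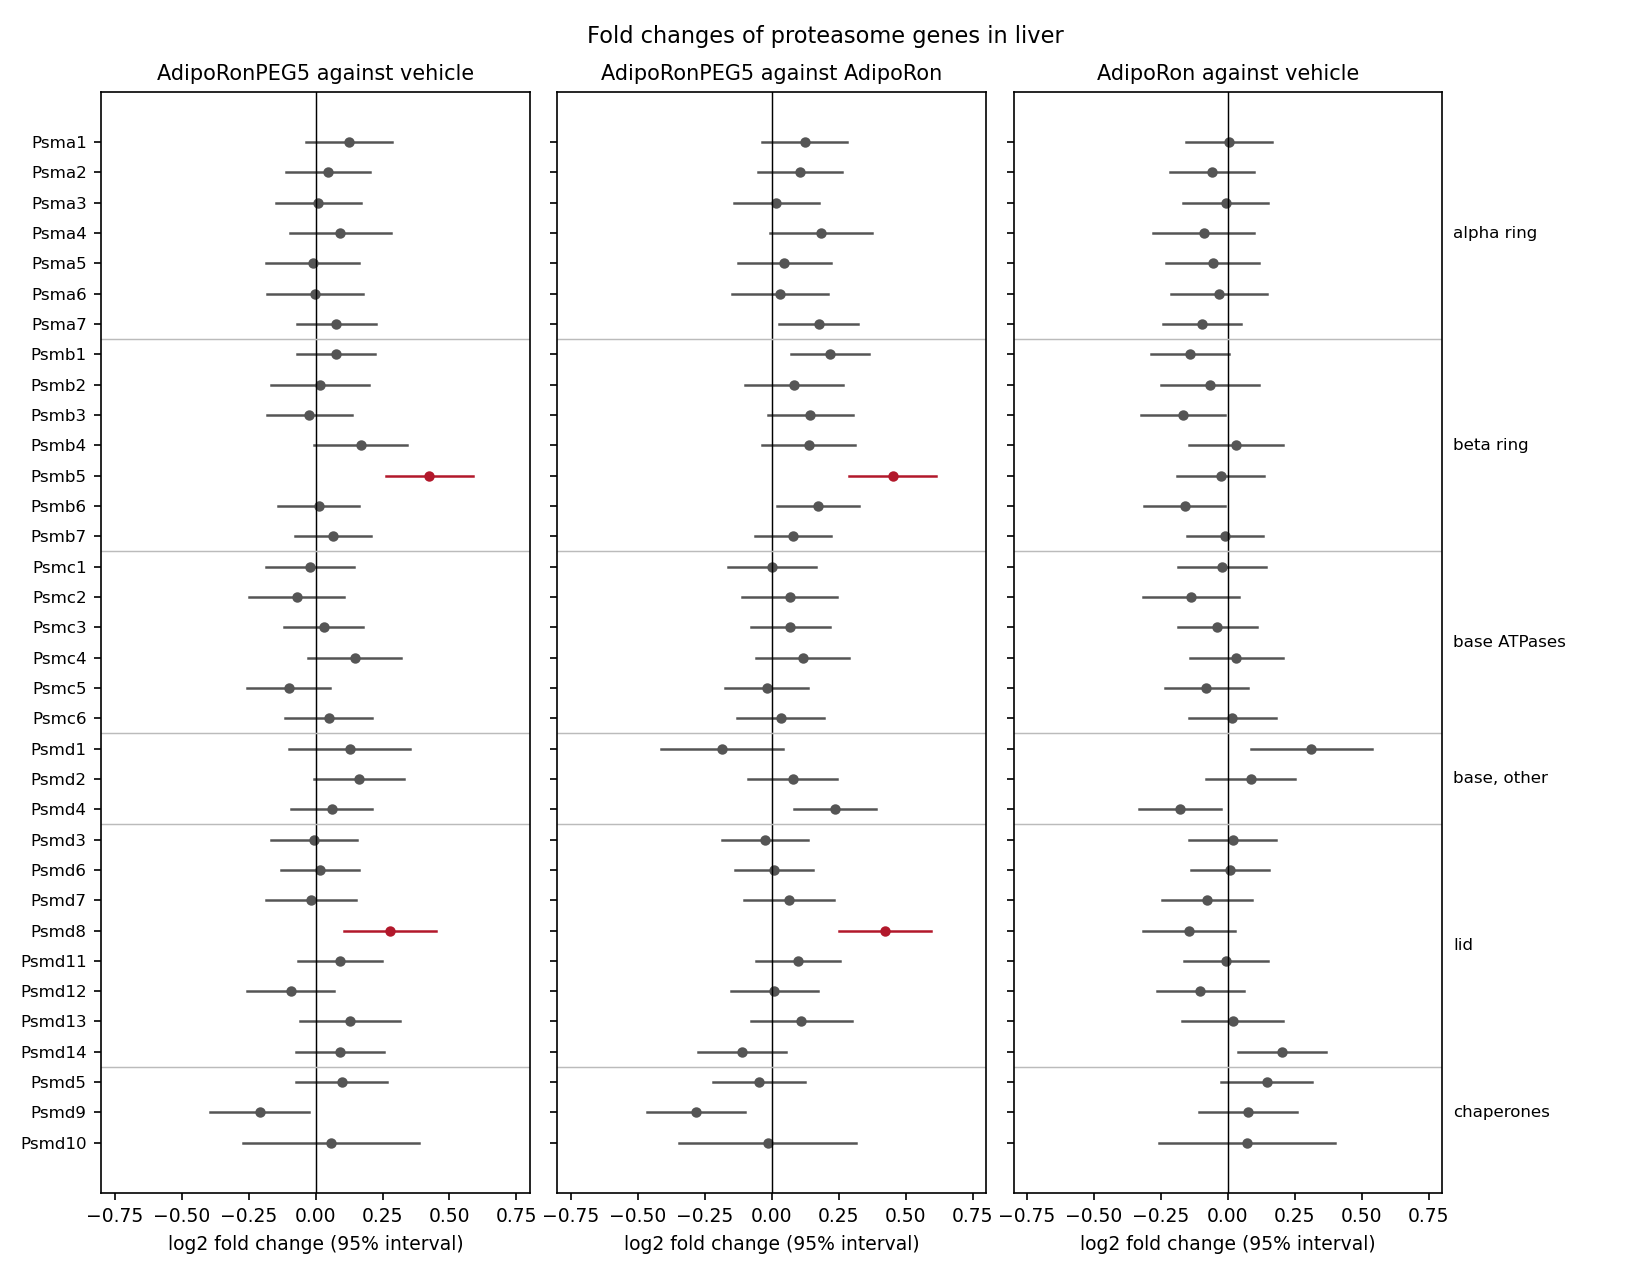
Log2 fold change with its 95% confidence interval for the 34 members used in liver, in the comparisons AdipoRonPEG5 against vehicle, AdipoRonPEG5 against AdipoRon and AdipoRon against vehicle, with called genes in red. Psmb5 (0.42 and 0.45) and Psmd8 (0.28 and 0.42) are the called genes of both AdipoRonPEG5 panels, and no gene is red with AdipoRon against vehicle.

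Fold changes of the members were small beside those of other genes. The median absolute log2 fold change of the 35 members was 0.071 with AdipoRonPEG5 against vehicle, 0.071 with AdipoRon against vehicle and 0.098 between the compounds. Over all genes tested the same medians were 0.208, 0.17 and 0.172. Low counts widen fold changes and most members were well counted, so that the 2 sets of medians differ in precision too. Summed over the 36 members, the level was 3364 to 3518 CPM in AdipoRonPEG5, 3096 to 3289 CPM in AdipoRon and 3220.2 to 3394 CPM in vehicle livers, with overlap between AdipoRonPEG5 and vehicle. As a share of the total count, without TMM, the members held 0.348% to 0.350% in AdipoRonPEG5, 0.316% to 0.341% in AdipoRon and 0.309% to 0.318% in vehicle livers, and AdipoRonPEG5 did not overlap the other groups. The beta ring alone summed to 949.8 to 1011 CPM in AdipoRonPEG5, 841 to 881 CPM in AdipoRon and 886 to 947 CPM in vehicle livers, with no overlap between the groups. Without Psmb5 the 6 other beta ring genes summed to 791 to 835 CPM in AdipoRonPEG5, 724 to 759.6 CPM in AdipoRon and 766 to 817 CPM in vehicle livers, and AdipoRonPEG5 and vehicle overlapped.

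The level of Psmb5 and Psmd8 relative to the rest of their ring or lid differed between the groups. Only these 2 genes were taken, because they were called, so that the ratios describe their rise and are no further test of it. The count of Psmb5 over the geometric mean of the other 6 beta ring genes was 1.21, 1.29 and 1.34 in AdipoRonPEG5, 1.05, 1.03 and 1.02 in AdipoRon and 0.994, 0.967 and 1.01 in vehicle livers. All AdipoRonPEG5 ratios lay above the 6 others. Psmd8 over the geometric mean of the other 7 lid genes was 1.68, 1.69 and 1.87 in AdipoRonPEG5, 1.30, 1.36 and 1.31 in AdipoRon and 1.5, 1.41 and 1.51 in vehicle livers. Here the AdipoRon ratios were the lowest. A ratio within a library does not depend on the scaling between libraries. In FPKM, Psmb5 stood above Psmb6 in AdipoRonPEG5 livers (192 ± 7.81 and 170.3 ± 5.96) and below it in AdipoRon (142 ± 4.65 and 153 ± 4.24) and vehicle livers (135 ± 4.15 and 159 ± 3.95; SD, n = 3 each).

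**Figure D4:**
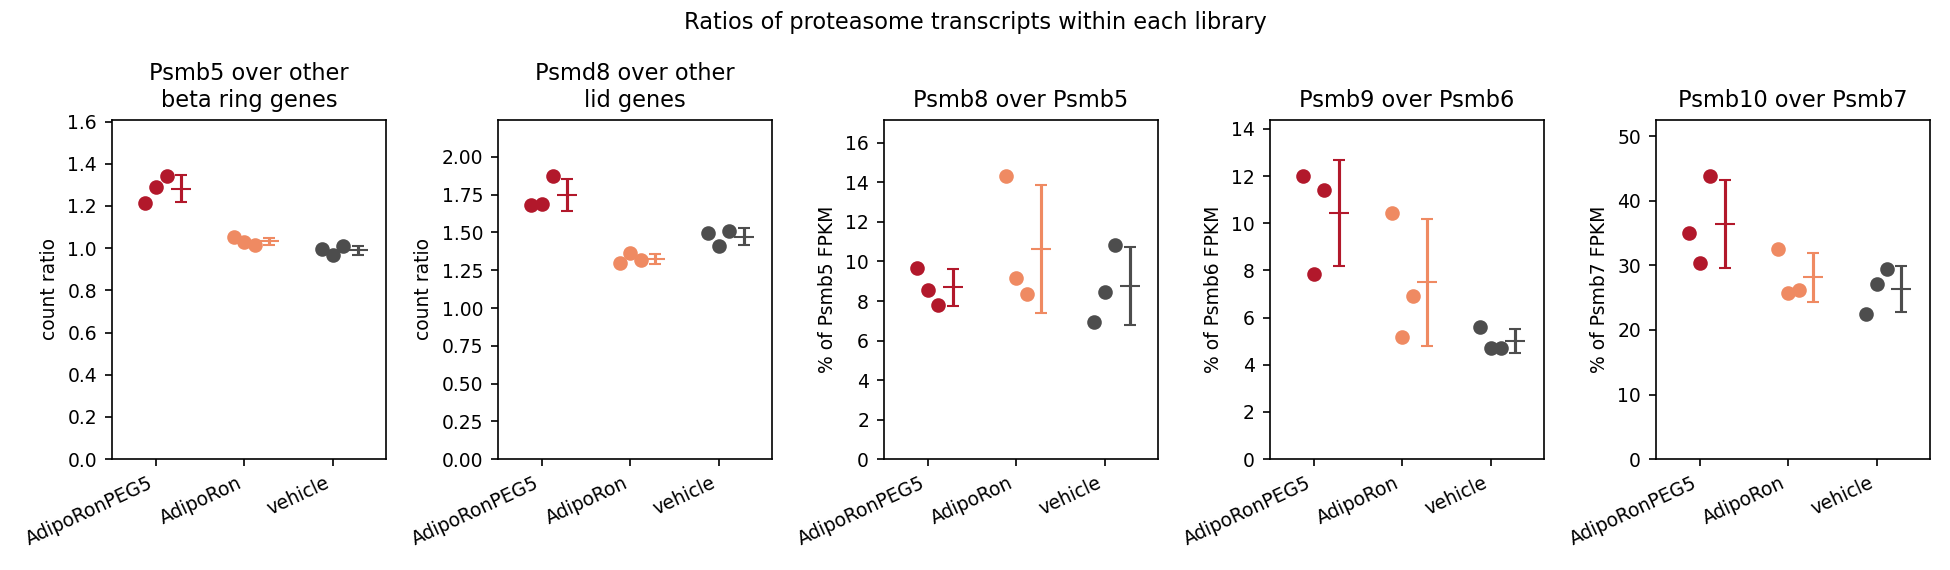
Ratios within each library for AdipoRonPEG5, AdipoRon and vehicle livers: Psmb5 over the other beta ring genes, Psmd8 over the other lid genes, and each immunoproteasome gene as a percentage of its constitutive counterpart in FPKM. Psmb5 over the other beta ring genes is 1.21 to 1.34 in AdipoRonPEG5 libraries and at most 1.05 in the other libraries.

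The immunoproteasome exchanges the catalytic subunits for Psmb8, Psmb9 and Psmb10, which interferon induces, and works with the activator of Psme1 and Psme2. Of these 5 genes, 3 rose with AdipoRonPEG5 against vehicle, 0 fell and 2 did not pass, with a median log2 fold change of 0.54. Over all genes tested, 9.55% were called higher and 7.63% lower, and these 5 were listed with earlier results of these data known. Psmb9 was at 59.7, 37.4 and 54.6 CPM in AdipoRonPEG5, 44.7, 21.6 and 30.4 CPM in AdipoRon and 25.8, 22.2 and 23.9 CPM in vehicle livers. The AdipoRonPEG5 libraries lay above those of vehicle and overlapped with those of AdipoRon. Psmb9 rose with AdipoRonPEG5 against vehicle (log2 ratio 1.07 ± 0.23 (SE), edgeR adjusted p = 0.0107), as did Psme1 (0.77 ± 0.11, adjusted p = 0.00144) and Psmb10 (0.54 ± 0.14, adjusted p = 0.0221). The Psmb10 call ended without AdipoRonPEG5 3, vehicle 1 or vehicle 2 (adjusted p from 0.0618 to 0.0868), and that of Psmb9 with vehicle 3 and AdipoRonPEG5 1 both left out (0.0561).

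Psmb8 averaged 31.2 ± 2.05 CPM in AdipoRonPEG5, 28.1 ± 9.13 CPM in AdipoRon and 23.7 ± 6.53 CPM in vehicle livers (SD, n = 3 each) and was not called against vehicle (edgeR adjusted p = 0.233). None of the 5 genes was called with AdipoRon against vehicle. Between the compounds edgeR called 1 of the 5, Psme1, higher with AdipoRonPEG5 (log2 difference 0.68 ± 0.11 (SE), adjusted p = 0.00861), at 143, 136 and 166 CPM in AdipoRonPEG5 livers against 106, 90.4 and 81.6 CPM in AdipoRon livers. Over all genes tested, 2.68% were called higher between the compounds. Psmb9 had a log2 difference of 0.65 between the compounds that was not called (adjusted p = 0.132). It was called without AdipoRon 1 (0.0364), and both Psmb9 and Psmb10 were called higher between the compounds with no filter on low counts (adjusted p = 0.0362 and 0.0281) and with DESeq2 (0.0485 and 0.0381). Per length, the immunoproteasome genes stayed the minor form in all libraries. Psmb9 was 12%, 7.86% and 11.4% of Psmb6 in AdipoRonPEG5, 10.4%, 5.16% and 6.89% in AdipoRon and 5.60%, 4.71% and 4.69% in vehicle livers. Psmb10 was 30.4% to 43.8% of Psmb7 in AdipoRonPEG5, 25.7% to 32.5% in AdipoRon and 22.5% to 29.4% in vehicle livers. Psmb8 was 7.82% to 9.67% of Psmb5 in AdipoRonPEG5, 8.37% to 14.3% in AdipoRon and 6.96% to 10.9% in vehicle livers. For Psmb8 the groups overlapped, and its counterpart Psmb5 itself rose with AdipoRonPEG5.

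Markers of immune cells moved in the same livers. Over all genes tested, 9.55% were called higher and 7.63% lower with AdipoRonPEG5 against vehicle, and 3.8% and 1.4% with AdipoRon. All 11 macrophage markers rose with AdipoRonPEG5 against vehicle, and 10 of 11 with AdipoRon, at a summed level of 701 to 736 CPM in AdipoRonPEG5, 453 to 801 CPM in AdipoRon and 189 to 273 CPM in vehicle livers. None of the 11 was called between the compounds. Of 7 tested lymphocyte markers, 4 rose and 1 fell with AdipoRonPEG5 against vehicle, and 2 were not called. The marker that fell was Cd4, named after its values were seen. All 10 listed summed to 7.03 to 7.90 CPM, 5.06 to 7.96 CPM and 3.34 to 4.46 CPM in AdipoRonPEG5, AdipoRon and vehicle livers. The 6 neutrophil markers stayed at or below 4.20 CPM in sum, and Ly6g was at 0 in all libraries. Of 6 stellate cell markers, 1 rose with AdipoRonPEG5 against vehicle, and 5 had an unadjusted p under 0.05, beside 4134 of the 13151 genes tested. None was called with AdipoRon against vehicle. Their sums were 88.0 to 114 CPM in AdipoRonPEG5, 78.5 to 97.9 CPM in AdipoRon and 62.3 to 81.0 CPM in vehicle livers. Of 6 endothelial and 4 cholangiocyte markers, 1 and 0 rose with AdipoRonPEG5 against vehicle, and none fell. Of 4 tested proliferation markers, 4 rose with AdipoRonPEG5 and 3 with AdipoRon against vehicle, at sums of 9.56 to 16.3 CPM in AdipoRonPEG5, 7.72 to 10.2 CPM in AdipoRon and 2.47 to 5.38 CPM in vehicle livers. In bulk liver, more cells of a type and more RNA per cell cannot be told apart, and neither can fewer cells and less RNA per cell. The part of these cells in the values of Psmb5, Psmd8 and the immunoproteasome genes was not tested.

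Further genes of the particle gave few calls. None of the 7 further subunits and associated enzymes tested (Adrm1, Sem1, Usp14, Uchl5, Ube3c, Ecpas and Txnl1) was called by edgeR in any comparison, and an unadjusted p under 0.05 was reached by 1 of them with AdipoRonPEG5 and 1 with AdipoRon against vehicle. Of the 13151 genes tested, 4134 and 2884 had such a p in these comparisons. Of the activators and the inhibitor (Psme3, Psme4 and Psmf1), 1 of 3 rose with AdipoRonPEG5 against vehicle, where 9.55% of all genes tested were called higher. Psmf1, which encodes the proteasome inhibitor PI31, was at 34.3, 33.8 and 36.9 CPM in AdipoRonPEG5, 28.1, 27.4 and 30.2 CPM in AdipoRon and 29.3, 28.8 and 28.5 CPM in vehicle livers. All AdipoRonPEG5 libraries were above the others (against vehicle 0.28 ± 0.073 (SE), edgeR adjusted p = 0.025; against AdipoRon 0.29 ± 0.073, adjusted p = 0.0437). The call against vehicle ended without AdipoRonPEG5 2, AdipoRonPEG5 3 or any 1 vehicle library (adjusted p from 0.0523 to 0.0861), and that against AdipoRon without any 1 of the libraries other than vehicle 3 (0.0517 to 0.131). With vehicle 3 and AdipoRonPEG5 1 both left out or no filter both calls ended (0.061 to 0.0764), and that against AdipoRon also with total-count scaling or only these groups in the fit (0.0602 and 0.0589).

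Of the 5 chaperones that assemble the core, 1 fell with AdipoRonPEG5 against vehicle, where 7.63% of all genes tested were called lower. None was called in the other comparisons. Psmg3 was at 4.39 ± 0.93 CPM in AdipoRonPEG5, 5.37 ± 0.322 CPM in AdipoRon and 6.48 ± 0.80 CPM in vehicle livers (SD, n = 3 each; log2 ratio of AdipoRonPEG5 to vehicle -0.56 ± 0.17 (SE), edgeR adjusted p = 0.0473). This call ended without any 1 of AdipoRonPEG5 2, AdipoRonPEG5 3, the AdipoRon libraries, vehicle 1 and vehicle 2 (adjusted p from 0.0572 to 0.146), and with total-count scaling, only these groups in the fit or vehicle 1 thinned (0.0646 to 0.0956). Pomp, the chaperone that matures the beta ring and lets its active sites form, was at 149, 149 and 153 CPM in AdipoRonPEG5, 129, 127 and 131 CPM in AdipoRon and 125, 128 and 142 CPM in vehicle livers. Its AdipoRonPEG5 libraries were the highest, but Pomp was not called against vehicle (0.19 ± 0.071, adjusted p = 0.089). It was called without vehicle 3 (0.0345), with total-count scaling (0.0164) and with a length trend removed (0.0297).

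The NRF1 pathway list held the factor, its processing enzymes and partners, 9 genes in all. With AdipoRonPEG5 against vehicle 3 of the 9 fell and 0 rose, where 7.63% of all genes tested were called lower and 9.55% higher. This list too was chosen with earlier results of these data known, so the count cannot be read as a result about the pathway. Nfe2l1, which encodes NRF1, averaged 137.5 CPM in AdipoRonPEG5, 144 CPM in AdipoRon and 132 CPM in vehicle livers and was not called (log2 ratio 0.058 ± 0.090 (SE), edgeR adjusted p = 0.708). The genes that fell were Syvn1 (-1.49 ± 0.20, adjusted p = 0.00109) and Sel1l (-0.64 ± 0.087, adjusted p = 0.0011), the ubiquitin ligase of the endoplasmic reticulum and its partner, and Ddi2, the protease that cuts NRF1. Ddi2 was at 198 ± 8.57 CPM in AdipoRonPEG5, 238 ± 5.33 CPM in AdipoRon and 237 ± 6.34 CPM in vehicle livers (SD, n = 3 each; -0.26 ± 0.071, adjusted p = 0.0311). The Ddi2 call ended without AdipoRonPEG5 1, AdipoRonPEG5 2, vehicle 1 or vehicle 2 (0.0676 to 0.105). It also ended with total-count scaling, no filter, only these groups in the fit, or vehicle 3 and AdipoRonPEG5 1 both left out (0.0613 to 0.146). With AdipoRon against vehicle Syvn1 alone of the 9 fell (-0.86 ± 0.20, adjusted p = 0.0331), a call that ended without AdipoRon 2, AdipoRon 3 or any 1 vehicle library (0.0618 to 0.0978) and in the robust fit (0.0717). Over all genes tested, 1.4% were called lower with AdipoRon against vehicle. None of the 9 was called between the compounds.

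NRF2 and its targets were called more often than the proteasome genes, but this list was chosen with earlier results of these data known. The difference was not tested and cannot be read as a result of its own. Of 13 tested genes of the 14 listed, 8 rose with AdipoRonPEG5 against vehicle and 0 fell, with a median log2 fold change of 0.48. Over all genes tested, 9.55% were called higher and 7.63% lower in this comparison. Gsta1, a glutathione transferase, was at 504, 437 and 532 CPM in AdipoRonPEG5, 0.432, 0.111 and 0.342 CPM in AdipoRon and 0.54, 0.224 and 0.0744 CPM in vehicle livers. Next came Gstm1, another glutathione transferase (3.52 ± 0.20 (SE), edgeR adjusted p = 7.37e-06), the carbonyl reductase Cbr3 (3.89 ± 0.27, adjusted p = 2.24e-05) and the heme oxygenase Hmox1 (1.5 ± 0.23, adjusted p = 0.0018). Nfe2l2 itself, which encodes NRF2, averaged 50.9 ± 4.22 CPM in AdipoRonPEG5, 56.1 ± 3.77 CPM in AdipoRon and 57.2 ± 6.15 CPM in vehicle livers and was not called (adjusted p = 0.254). Between the compounds 5 of the 13 were higher with AdipoRonPEG5, where 2.68% of all genes tested were called higher. With AdipoRon 1 of the 13, Hmox1, rose against vehicle (1.17 ± 0.23, adjusted p = 0.018). That call ended without AdipoRon 1, vehicle 1 or vehicle 2 (0.0559 to 0.0593). Whether the change of these targets bears on Psmb5 was not tested.

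Genes that bring substrates to the proteasome changed in single cases. None of the 6 ubiquitin and E1 enzyme genes was called by edgeR in any comparison, with an unadjusted p under 0.05 for 1 with AdipoRonPEG5 and 2 with AdipoRon against vehicle and for 2 between the compounds. Of the 13151 genes tested, 4134, 2884 and 2863 had such a p in the same order. Of the 5 shuttle factors, which carry ubiquitinated proteins to the particle, 1 rose and 1 fell with AdipoRonPEG5 against vehicle. Over all genes tested, 9.55% were called higher and 7.63% lower in this comparison. Ubqln2 averaged 24.2 ± 2.75 CPM in AdipoRonPEG5 and 18.2 ± 2.86 CPM in vehicle livers (log2 ratio 0.40 ± 0.12 (SE), edgeR adjusted p = 0.0474), and its call ended without any 1 library other than vehicle 1 (0.0551 to 0.168). It ended as well with limma-voom, a length trend removed, only these groups in the fit, or vehicle 3 and AdipoRonPEG5 1 both left out (0.0506 to 0.136). Ubqln4 averaged 34.8 ± 0.877 CPM in AdipoRonPEG5 and 43.2 ± 3.71 CPM in vehicle livers (-0.32 ± 0.077, adjusted p = 0.0176), and its call ended without AdipoRonPEG5 2, AdipoRonPEG5 3, vehicle 1 or vehicle 2 (0.0552 to 0.0653) and with total-count scaling (0.0999).

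Other complexes of many subunits were set beside the proteasome. Of the 9 genes of the COP9 signalosome, a relative of the lid, and of the 8 genes of the CCT chaperonin, which folds actin and tubulin, none was called by edgeR in any comparison. An unadjusted p under 0.05 was reached by 1 COP9 gene with AdipoRonPEG5 against vehicle and 2 between the compounds, and by 0 CCT genes. Of the 13151 genes tested, 4134 and 2863 had such a p in these comparisons. With AdipoRonPEG5 against vehicle the COP9 genes had a median log2 fold change of 0.0035 and the CCT genes one of -0.023, beside 0.057 for the proteasome members. Between the compounds the medians were 0.051, 0.023 and 0.078 in the same order. The difference of the proteasome from these complexes was not tested.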

How the data were processed

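Liver RNA of 9 libraries in 3 groups was analysed from 1 table of raw read counts per gene, which the authors deposited beside FPKM. The deposited FPKM imply whole-number gene lengths within 0.01 for 99.995% of values and served here only for levels per length. The submitters' processing notes name edgeR, DESeq2, HTSeq 0.6.1, STAR 2.5 and TopHat without saying what each did. Not given in the sources used here are genome build, annotation, strand setting and the treatment of multi-mapped reads. Counts of the pseudogenes Psmb5-ps, Psmb6-ps and Psmb7-ps2 were at most 1 per library. Members were matched by symbol, and 162 list symbols were all found, 5 through another symbol.

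All 9 libraries entered 1 edgeR 4.0.16 quasi-likelihood fit (R 4.3.3, TMM, filterByExpr, robust set to FALSE, 3 group means), with Benjamini-Hochberg adjustment over 13151 genes. Intervals at 95% come from the standard error and the fit's degrees of freedom. Simulated counts with seeded changes were used to test the script. Alternatives, 21 in all, were total-count scaling, RLE size factors, other filters on low counts, DESeq2 1.42.0, limma-voom (limma 3.58.1), a robust fit, only the groups compared, a replicate block, vehicle 1 thinned, vehicle 3 and AdipoRonPEG5 1 both left out, a gene length trend removed, and each library left out in turn. Promoter windows came from a RefSeq table (GRCm38.p6).

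Values per library are given for called members and the catalytic subunits, and other members by range unless named after their values were seen. Of the other lists, at most 4 called genes by lowest p are named, and Nfe2l1, Nfe2l2, Psmb8, Psmb9, Psmb10 and Pomp whatever their test. The members and lists were chosen with earlier results of these data known. A further compound named in the treatment protocol, AdipoRonPEG6HTL, was not analysed here.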

Additional observations from a re-analysis of the deposited data

How the results depend on the processing

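Counts of called members kept to within 1.5 times under most of the 21 settings in each comparison. With total-count scaling 4 members were called higher with AdipoRonPEG5 against vehicle (Psmb4 and Psmd2 in addition) and 2 with AdipoRon against vehicle. DESeq2 called 4 higher between the compounds. AdipoRonPEG5 against vehicle gave 1 with no filter and 1 with only these groups in the fit. It also gave 1 without AdipoRonPEG5 2, AdipoRonPEG5 3, AdipoRon 3, vehicle 1 or vehicle 2, and 2 without any 1 of the other libraries. Total-count scaling moved the median of all genes to 0.081 with AdipoRonPEG5 and 0.10 with AdipoRon against vehicle, and to -0.029 between the compounds. The members' median ran from 0.019 to 0.14, from -0.060 to 0.075 and from 0.020 to 0.10 in these comparisons. Values near 0 turned sign. For Psmb5 with AdipoRon against vehicle the log2 fold change was 0.075 with total-count scaling, 0.012 with vehicle 3 and AdipoRonPEG5 1 left out, 0.13 with the length trend removed and -0.060 to 0.010 with a library left out. For Psmb7 it was 0.087 with total-count scaling, 0.11 with the length trend removed and -0.041 to 0.0045 with a library left out, and between the compounds -0.014 with the length trend removed. Psmb6 ran from -0.023 to 0.054 and Psmc6 from -0.0063 to 0.11 with AdipoRonPEG5 against vehicle with a library left out. Of 1008 single-gene values under the alternatives, 78 lost their call and 15 gained one, and the cause was not tested. The 1008 include values of genes not called in the main fit, which had no call to lose. The share of calls lost was therefore larger than 78 of 1008.

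With replicate number as a block, 2, 0 and 2 members were called higher with AdipoRonPEG5 against vehicle, AdipoRon against vehicle and between the compounds, and 0 lower. Same-numbered libraries had correlations of deviations from -0.27 to 0.077, and 0 of 9 libraries correlated best with their own number, so the numbers were not taken as pairs. With the block the calls against vehicle of Ddi2 (adjusted p = 0.068), Psmg3 (0.0682) and Ubqln2 (0.0786) with AdipoRonPEG5 and of Psmf1 between the compounds (0.0823) were not made, and Psmb9 was called between the compounds (0.0486). Over all genes the block gave 1044 higher and 719 lower, 365 and 79, and 190 and 148 calls. With 3 libraries a group, small differences may have gone undetected, and the intervals do not give the smallest detectable change. Intervals of the 31 subunits reached from -0.26 to 0.59 with AdipoRonPEG5 and from -0.33 to 0.54 with AdipoRon against vehicle. The upper end of 0.59 was that of Psmb5, which was called.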
